A study of Mus musculus with 6 samples.

Results

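Manganese is used as a cofactor by a set of enzymes. The mRNAs of 8 of these enzymes were described here in the cerebellum of mice that lack the manganese importer SLC39A8 in neurons. The 8 genes were chosen from the list of enzymes that use manganese as a cofactor, namely *Sod2*, *Arg1*, *Arg2*, *Agmat*, *Glul*, *Pc*, *Pck2*, and *Pepd*. All 8 were found among the 53715 genes of the table by their Ensembl identifiers. Cerebellar RNA had been sequenced from 3 mice of each genotype, control and *Slc39a8*-NSKO, all male and 4 weeks of age, of the strain C57BL/6 in the labels and C57BL/6J in the study's methods. In the latter, Cre recombinase under the synapsin I promoter deletes the floxed *Slc39a8* alleles in neurons, so that glia and vessels keep the gene, and the study states that this Cre can vary across brain regions. The control group is called WT in the sample labels and *Slc39a8* fl/fl in the study's text, and the counts do not settle which applies. The comparison asks whether mRNAs of enzymes that use manganese differ in a cerebellum whose neurons lack an importer of the metal. It concerns mRNA alone, and neither the protein, its metal, nor its activity was measured in these data.

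Manganese superoxide dismutase, encoded by *Sod2*, converts superoxide to hydrogen peroxide in the mitochondrial matrix. Glutamine synthetase, encoded by *Glul*, joins ammonia to glutamate in astrocytes and Bergmann glia and so closes the cycle by which neurons recover their transmitter. The arginases and agmatinase cleave urea from arginine and from agmatine. Pyruvate carboxylase and the mitochondrial phosphoenolpyruvate carboxykinase make and use oxaloacetate, and prolidase splits dipeptides that end in proline. Of the 8 proteins, those of *Sod2*, *Arg2*, *Agmat*, *Pc*, and *Pck2* reside in mitochondria and those of *Glul*, *Arg1*, and *Pepd* in the cytosol.

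The counts on genes lay between 14431260 and 20844267 in a mouse, with control mice 2 and 3 the shallowest. No 2 of the 6 mice were alike within sampling noise (chi-square over its degrees of freedom, 4.01 to 9.61). *Slc39a8*, the deleted gene, was counted 99, 46, and 44 times in controls 1 to 3, against 38, 40, and 41 times in *Slc39a8*-NSKO mice 1 to 3. In counts per 1000000 on normalized library sizes (CPM) the controls had 3.60 ± 1.03 and the *Slc39a8*-NSKO mice 2.04 ± 0.138 (SD, n = 3 each). The genotypes did not overlap, and the log2 fold change was −0.83 (standard error, SE, 0.237, edgeR quasi-likelihood adjusted p = 0.534 over all genes). Without control mouse 1, which was the highest, it was −0.56. The tissue carried the markers of its 2 main neurons, with all 6 of 6 Purkinje cell markers and 6 of 6 granule cell markers counted. Their summed levels were 6527 to 7718 CPM and 4038 to 4419 CPM over the 6 mice, and none of the 12 genes passed the test. Markers of cardiac muscle summed to 2.02 to 2.92 CPM in control and 11.7 to 13.5 CPM in *Slc39a8*-NSKO mice, and 3 of the 4 tested passed, and the part of this in the values below was not tested.

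Of the 8 mRNAs, none of the 7 that could be tested differed between the genotypes past the threshold. In edgeR's quasi-likelihood test, with Benjamini-Hochberg adjustment over all genes, 0 of the 7 members tested had an adjusted p below 0.05, where 16 of 16330 genes (0.098%) did. At an unadjusted p below 0.05 the members again numbered 0, against 5.39% of all genes. DESeq2 and limma-voom called 0 members as well, also at an unadjusted p below 0.05. *Agmat* was too low for the test, since in no mouse did it reach the limit of 0.523 CPM that the filter sets. *Arg2* entered the test through the *Slc39a8*-NSKO mice, of which 3 lay above that limit, against 1 control mouse. The log2 fold changes of the 7 ran from −0.21 for *Arg1* to 0.51 for *Arg2*, with a median of 0.013 beside 0.0011 over all genes tested. That median includes *Arg2*. In bulk tissue, fewer cells of a type and less RNA per cell cannot be told apart in any of these values.

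**Figure D1:**
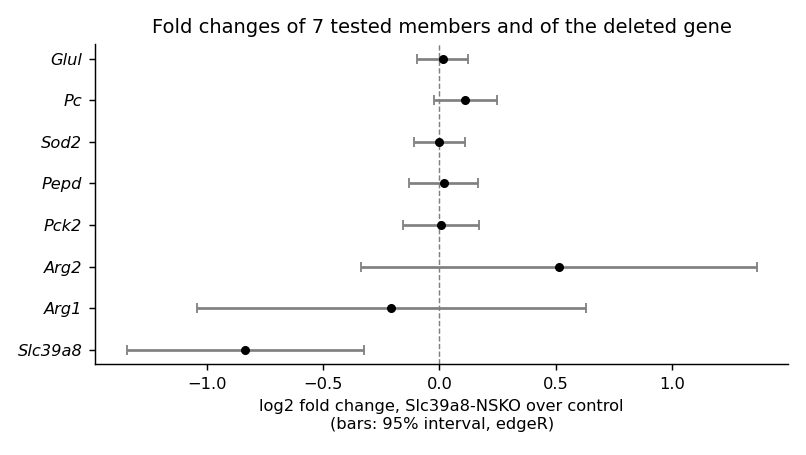
Log2 fold change (*Slc39a8*-NSKO over control) of the 7 tested enzymes and of *Slc39a8*, with points for the estimate and bars for the 95% interval from edgeR. The 5 well-counted enzymes lie between 0.00031 and 0.11 with short bars, the 2 arginases have bars that reach from −1.04 to 1.36, and the bar of *Slc39a8* lies below 0.

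The 5 well-counted members gave intervals narrow enough to bound the difference. Over *Glul*, *Sod2*, *Pc*, *Pck2*, and *Pepd*, the 95% intervals of the fold change reached from 10.4% below the control level to 18.5% above it (edgeR adjusted p between 0.974 and 0.999). These are the outermost bounds, the lower from *Pck2* and the upper from *Pc*, and a larger difference lies outside all the intervals. Single genes were bounded more closely, *Sod2* from −7.2% to 7.8% and *Glul* from −6.4% to 8.8%. A difference inside the interval of its own gene could not be resolved with 3 mice in a group.

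*Sod2* (ENSMUSG00000006818.4) is a plus-strand gene of chromosome 17 (13006846 to 13040063, GRCm38, as for all genes here). It measured 169, 160, and 164 CPM in control mice 1 to 3 and 165, 164, and 165 CPM in *Slc39a8*-NSKO mice 1 to 3. The *Slc39a8*-NSKO mice all lay within the range of the controls. The means were 164 ± 4.88 and 165 ± 0.444 CPM (SD, n = 3 each), and the log2 fold change was 0.00031 (SE 0.050, 95% interval −0.11 to 0.11, edgeR adjusted p = 0.999). Over all 6 mice the coefficient of variation was 1.89%, where counting error alone gives 1.85%. The spread of *Sod2* was about that of the sampling of reads.

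Other enzymes remove superoxide or the peroxide that SOD2 makes. *Sod1*, the copper and zinc enzyme of the cytosol, had a log2 fold change of 0.010 (SE 0.059), and *Sod3*, its secreted counterpart, one of 0.024 (SE 0.106). *Prdx3*, the peroxidase of the same mitochondrial matrix, stood at 51.9 ± 1.95 CPM in control and 52.4 ± 4.96 CPM in *Slc39a8*-NSKO mice (SD, n = 3 each). Of the 17 genes of superoxide and peroxide removal, all were tested and 0 passed, with a median log2 fold change of 0.00044. The lowest unadjusted p belonged to *Gpx1*, a glutathione peroxidase that was higher in every *Slc39a8*-NSKO mouse (log2 fold change 0.13, edgeR adjusted p = 0.926). *Prdx6*, a peroxidase with 1 catalytic cysteine, came next and was lower in every *Slc39a8*-NSKO mouse (log2 fold change −0.084, edgeR adjusted p = 0.983). Per kilobase of exon, *Sod1* was 1.59 times as high as *Sod2* in the mean over the 6 mice, with a range from 1.48 to 1.73. That order depended on the length used. With the longest transcript in place of all exons, *Sod1* was at 26.1 and *Sod2* at 28.1 CPM per kilobase.

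*Glul* (ENSMUSG00000026473.15), on the plus strand of chromosome 1 from 153899944 to 153909723, was the most abundant member. Control mice 1 to 3 had 19629, 12818, and 14963 counts, and *Slc39a8*-NSKO mice 1 to 3 had 19242, 18071, and 17609. Scaled to library size these were 946, 890, and 960 CPM against 962, 927, and 934 CPM. The genotypes overlapped, with control mouse 2 the lowest of the 6. The means were 932 ± 37.1 and 941 ± 18.7 CPM (SD, n = 3 each), and the log2 fold change was 0.013 (SE 0.050, 95% interval −0.095 to 0.12, edgeR adjusted p = 0.995). Permuting the mice gave p = 0.8 (exact, two-sided). The exons of *Glul* overlap those of *Teddm2* on the other strand by 116 bases, but *Teddm2* reached a mean of only 0.694 CPM.

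*Glul* is transcribed mainly by glia, and its level was therefore set beside markers of astrocytes and Bergmann glia in the same mouse. The 12 markers of astrocytes and Bergmann glia summed to 4233, 3747, and 4231 CPM in control mice 1 to 3 and to 4383, 4298, and 4314 CPM in *Slc39a8*-NSKO mice 1 to 3. Every *Slc39a8*-NSKO mouse lay above every control mouse in this sum, although 0 of the 12 markers passed the test and their median log2 fold change was 0.069. *Gfap*, the intermediate filament of astrocytes, had the lowest p of them and the largest log2 fold change, 0.40 (edgeR adjusted p = 0.301). Of the 12 markers, 10 had a positive sign and 2 a negative one, namely *Slc4a4* (−0.094) and *Sox9* (−0.061). Relative to the mean log2 CPM of the markers, *Glul* stood at 2.06, 2.13, and 2.09 in control and at 2.06, 1.98, and 1.99 in *Slc39a8*-NSKO mice. The difference of the means was −0.086 on the log2 scale, with SDs of 0.039 and 0.041 (p = 0.1 in an exact permutation of the mice, two-sided, which with 3 against 3 cannot be lower). The values of control mouse 1 and *Slc39a8*-NSKO mouse 1 were nearly the same, and the groups were apart only by that margin. Oligodendrocytes, which are also glia, were not among these markers. Their 6 markers had 0 positive and 6 negative signs, with a median log2 fold change of −0.071, and 0 passed the test. These markers summed to 7841 to 8973 CPM in control and 7281 to 8835 CPM in *Slc39a8*-NSKO mice, so that the genotypes overlapped. The part of the glial markers in the level of *Glul* was not tested further.

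**Figure D2:**
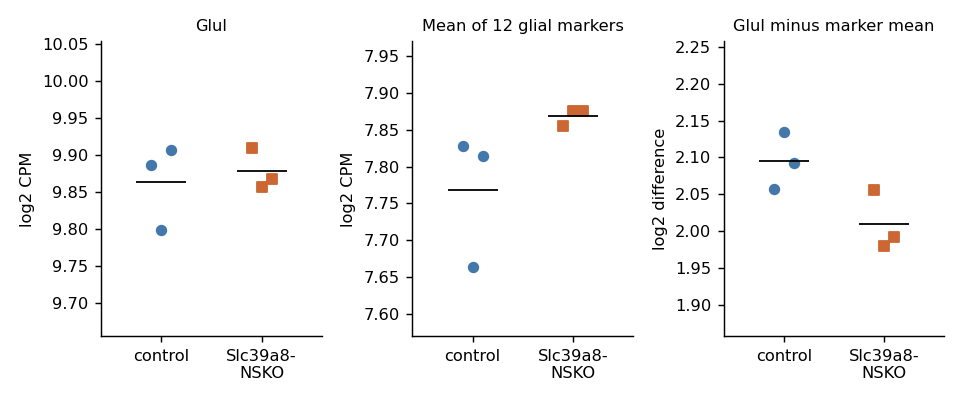
Log2 CPM of *Glul* (left), mean log2 CPM of 12 glial markers (middle), and their difference (right) in each mouse, with horizontal lines at the group means and the same vertical span of log2 units in each panel. *Glul* overlaps between the genotypes, the marker mean is 0.10 higher in *Slc39a8*-NSKO mice, and the difference is 0.086 lower.

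Of 18 other genes of the glutamate and glutamine cycle, all were tested and 0 passed. The glial glutamate transporters *Slc1a3* and *Slc1a2* had log2 fold changes of 0.079 (SE 0.057) and 0.060 (SE 0.069). *Slc38a1*, which carries glutamine into cells, had one of 0.098 (edgeR adjusted p = 0.968). Over the list, 12 genes had a positive and 6 a negative sign, with a median log2 fold change of 0.036.

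*Pc*, listed as *Pcx* in the annotation (ENSMUSG00000024892.16), lies on the plus strand of chromosome 19 from 4510472 to 4621752. Its levels were 104, 99.6, and 117 CPM in control mice 1 to 3 and 114, 114, and 117 CPM in *Slc39a8*-NSKO mice 1 to 3. The genotypes overlapped through control mouse 3, which stood at the level of the *Slc39a8*-NSKO mice. The means were 107 ± 8.78 and 115 ± 1.85 CPM (SD, n = 3 each), and the log2 fold change was 0.11 (SE 0.063, 95% interval −0.024 to 0.25). This had the lowest p of the members, 0.0989 before and 0.974 after adjustment in edgeR's test. Pyruvate carboxylase, too, is an enzyme of astrocytes in brain, and relative to the 12 glial markers *Pc* differed by 0.014 on the log2 scale (exact two-sided permutation test, p = 0.8). That value depends on the markers chosen, and the part of glia in the level of *Pc* was not tested.

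*Pck2* (ENSMUSG00000040618.7) lies on chromosome 14, plus strand, from 55540266 to 55551242. It measured 36.4, 43.2, and 42.4 CPM in control and 39.2, 41.8, and 41.2 CPM in *Slc39a8*-NSKO mice, so that the controls spanned all *Slc39a8*-NSKO values. The log2 fold change was 0.0055 (SE 0.076, 95% interval −0.16 to 0.17, edgeR adjusted p = 0.998). *Pck1*, the gene of the cytosolic carboxykinase, had no count in any of the 6 mice, and a count of 0 in a single mouse allows a level of up to 3 counts there. The coding sequences of these paralogs are 70.3% identical over their alignment, and the longest run of bases that they share is 17.

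Of 24 further genes around pyruvate, oxaloacetate, and phosphoenolpyruvate, 20 were tested and 0 passed, with a median log2 fold change of 0.011. *Pdk1*, a kinase that turns off pyruvate dehydrogenase, was higher in every *Slc39a8*-NSKO mouse (log2 fold change 0.15, SE 0.077, edgeR adjusted p = 0.943). *G6pc3*, a glucose-6-phosphatase, came next with a log2 fold change of −0.079 (SE 0.068), and its genotypes overlapped.

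*Pepd* (ENSMUSG00000063931.14), on chromosome 7, plus strand, from 34912379 to 35044708, measured 31.1, 34.0, and 32.7 CPM in control and 33.7, 33.1, and 32.1 CPM in *Slc39a8*-NSKO mice. The *Slc39a8*-NSKO mice lay within the control range. The log2 fold change was 0.019 (SE 0.069, 95% interval −0.13 to 0.17, edgeR adjusted p = 0.995). Prolidase releases free proline, and of 13 genes of proline and dipeptide metabolism 12 were tested and 0 passed. *Pycrl*, which encodes a reductase of the last step of proline synthesis, had 18.80, 20.28, and 20.02 CPM in control and 21.1, 23.4, and 22.4 CPM in *Slc39a8*-NSKO mice. These did not overlap, and the log2 fold change of 0.18 (SE 0.082) had an edgeR adjusted p = 0.908. *P4ha2*, a prolyl hydroxylase of collagen, had a log2 fold change of 0.32 with a SE of 0.204.

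The 3 ureohydrolase genes were close to the limit of detection. *Arg1* (ENSMUSG00000019987.9) lies on the minus strand of chromosome 10 from 24915221 to 24927484. Controls 1 to 3 had 23, 9, and 9 counts, and the *Slc39a8*-NSKO mice had 15, 12, and 13. The genotypes overlapped in CPM, and control mouse 1 was the highest of the 6. The log2 fold change was −0.21 (SE 0.388, 95% interval −1.04 to 0.63, edgeR adjusted p = 0.994). Leaving out control mouse 1 gave 0.19, so that the sign rested on this mouse. *Arg1* is also a gene of macrophages. The 6 macrophage markers summed to 11.95 to 12.39 CPM in control and 13.2 to 14.3 CPM in *Slc39a8*-NSKO mice, and the 6 microglia markers to 67.9 to 75.4 and 78.7 to 82.4 CPM, with 0 of the 11 tested past the threshold. The part of these cells in the *Arg1* counts was not tested.

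*Arg2* (ENSMUSG00000021125.6), on the plus strand of chromosome 12 from 79130777 to 79156301, was counted 11.01, 6, and 8 times in the controls, against 12.01, 13.03, and 16 times in the *Slc39a8*-NSKO mice. In CPM these were 0.530, 0.417, and 0.513 against 0.600, 0.667, and 0.849, and every *Slc39a8*-NSKO mouse was above every control mouse. Among all genes tested, 10.3% did not overlap between the genotypes and 5.08% did so in this direction, and *Arg2* was the only member that did. Since it passed the filter on account of its higher group, the lack of overlap is a description. The log2 fold change was 0.51 (SE 0.395, 95% interval −0.34 to 1.36, edgeR adjusted p = 0.994; exact permutation p = 0.1, again the lowest possible). Summed over 3 mice, 25 counts in control and 41 in *Slc39a8*-NSKO mice gave a ratio of 1.43, with an exact interval for counting error of 0.847 to 2.45. *Arg2* was also the only member whose counts were not whole, and its exons overlap those of *Vti1b* on the other strand by 285 bases. *Vti1b* had a mean of 101 CPM, far above *Arg2*, and whether the counting used the strand is not given in the sources used here. The *Arg2* value is therefore uncertain.

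*Agmat* (ENSMUSG00000040706.4) lies on chromosome 4, plus strand, from 141746672 to 141759263. The controls had 5, 4, and 3 counts, the *Slc39a8*-NSKO mice had 9, 3, and 6, and the genotypes overlapped. Summed, 12 and 18 counts gave a ratio of 1.30 with a counting interval of 0.594 to 2.97. Ratios within that range could not be told apart at this depth.

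*Arg1* and *Arg2* are 62.6% identical over the alignment of their coding sequences, and *Arg1* and *Agmat* 53.8%. The longest run of bases that *Arg1* and *Arg2* have in common is 12. Reads of near-identical paralogs can be split in counting. These coding sequences are not near-identical, and the run is far shorter than the reads that the study describes. Only coding sequences were compared, and whether reads of these genes were split in counting was not tested. The run is shown here in capitals, with its neighbours in lower case.
Arg1 with Arg2, bases 523 to 534 of the coding sequence: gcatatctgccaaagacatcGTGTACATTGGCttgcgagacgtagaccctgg
Arg2 with Arg1, bases 580 to 591 of the coding sequence: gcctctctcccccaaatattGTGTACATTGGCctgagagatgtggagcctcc
*Arg1* and *Agmat* have 13 bases in common at a different place, again in capitals.
Arg1 with Agmat, bases 290 to 302 of the coding sequence: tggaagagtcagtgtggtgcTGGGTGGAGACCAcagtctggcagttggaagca
Agmat with Arg1, bases 491 to 503 of the coding sequence: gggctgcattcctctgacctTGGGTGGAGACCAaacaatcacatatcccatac

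Around the arginases, 27 genes of arginine, urea, and polyamine metabolism were listed, 24 were tested, and 0 passed. *Ass1* and *Asl*, which rebuild arginine from citrulline, had log2 fold changes of −0.039 (SE 0.145) and −0.019 (SE 0.116). *Otc* and *Nags*, which belong to the urea cycle of liver, were likewise without a count in all 6 mice. *Odc1*, which makes putrescine from the ornithine that arginase releases, measured 66.9, 75.3, and 65.0 CPM in control and 68.8, 84.9, and 79.2 CPM in *Slc39a8*-NSKO mice. Its genotypes overlapped, with a log2 fold change of 0.17 (SE 0.081, edgeR adjusted p = 0.923). *Ddah1*, which degrades the methylated arginines that inhibit nitric oxide synthases, was higher in all *Slc39a8*-NSKO mice, by a log2 fold change of 0.12 (SE 0.055, edgeR adjusted p = 0.916).

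Of 9 other enzymes that are active with manganese, among them the aminopeptidases of the *Xpnpep* family and the phosphatases of the *Ppm1* family, 8 were tested and 0 passed. *Ppm1b* had a log2 fold change of 0.086 (SE 0.051) and *Xpnpep3* one of −0.13 (SE 0.105). Over all 6 related lists, 99 of 108 genes were tested, 0 passed, and 3 had an unadjusted p below 0.05. For 6 the genotypes did not overlap with the *Slc39a8*-NSKO mice higher and for 2 with them lower, beside 5.08% and 5.26% of all genes. The median log2 fold change of these lists lay between −0.019 and 0.036, and that of all genes was 0.0011.

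**Figure D3:**
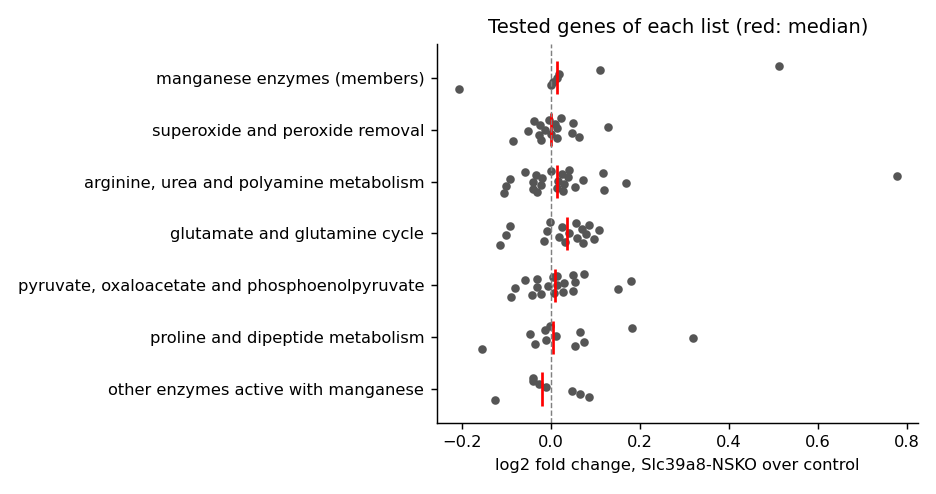
Log2 fold change (*Slc39a8*-NSKO over control) of each tested gene of the 8 enzymes and of the 6 related lists, 1 point for a gene and a red line at the median of each list. The medians lie close to 0, and the related genes run from −0.15 to 0.78, the latter being *Cps1*.

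Between members, levels were compared per kilobase of exon. *Glul* stood at 282 ± 8.03 CPM per kilobase (SD, n = 6 mice), *Pc* at 23.4 ± 1.55, *Sod2* at 16.4 ± 0.310, *Pepd* at 10.6 ± 0.345, and *Pck2* at 5.21 ± 0.320. The low group followed with *Arg2* at 0.417 ± 0.105, *Arg1* at 0.327 ± 0.0881, and *Agmat* at 0.193 ± 0.0746 CPM per kilobase. From *Glul* down to *Arg2* the ranges of neighbours over the 6 mice were apart, whereas those of *Arg2* and *Arg1* and of *Arg1* and *Agmat* overlapped. The mean of *Glul* was 12.1 times that of *Pc* and 1457 times that of *Agmat*. The order of *Pc* and *Sod2* depended on the length used, since with the longest transcript in place of all exons *Sod2* was at 28.1 and *Pc* at 26.8 CPM per kilobase.

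**Figure D4:**
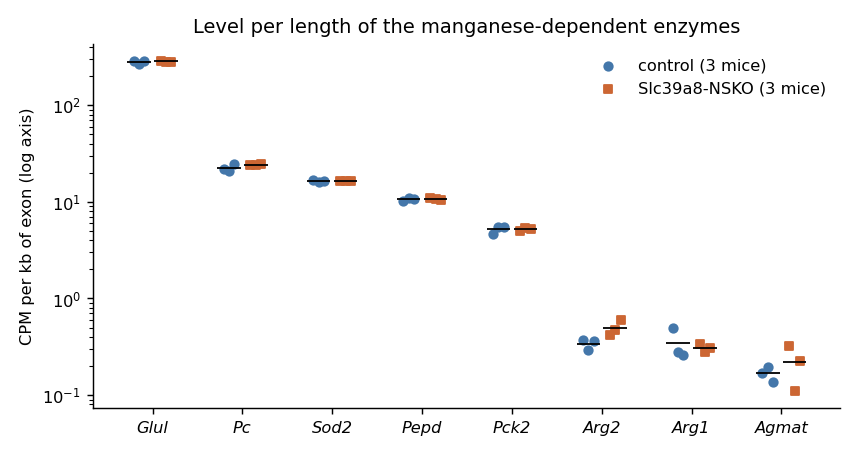
CPM per kilobase of exon (log axis) of the 8 enzymes in each mouse, ordered by mean, with circles for control, squares for *Slc39a8*-NSKO, and horizontal lines at the group means. *Glul* is near 282, *Pc* to *Pck2* lie between 5.21 and 23.4, and the 3 ureohydrolases lie below 1, where the mice scatter most.

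The 3 ureohydrolases, which had the fewest counts, scattered most among mice. The coefficient of variation over the 6 mice was 27.0% for *Arg1*, 25.1% for *Arg2*, and 38.6% for *Agmat*, where counting error alone gives 28.7%, 31.8%, and 48.2%. For *Pepd* it was 3.25%, against 4.13% from counting. *Glul*, *Pc*, and *Pck2* varied more than counting, with 2.85%, 6.62%, and 6.14% against 0.774%, 2.25%, and 3.70%. The median over all genes tested was 8.46%.

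The promoters of the most and the least abundant member are shown because their levels differ most. RefSeq windows of GRCm38.p6 were found for 6 of the 8 genes (*Glul*, *Pc*, *Sod2*, *Pepd*, *Pck2*, and *Agmat*), and the 250 bases before the annotated start were searched for the dinucleotide CG, which reads the same on both strands. The window of *Glul* held 15, a number reached by 27.3% of all 32851 promoter windows, and that of *Agmat* at its first annotated start held 2, reached by 81.2%. The median of all windows was 6. *Sod2* held 15, before a start that lies 993 bases inside the gene as given above, and *Pepd* and *Pck2* held 6 each. The window of the first start of *Pc* held 16 and that of its second start 4. At the second start of *Agmat* the window held 3. CG is in capitals in both sequences, and the count is a description of these letters only.
Glul, chr1:153899679-153899928, plus strand: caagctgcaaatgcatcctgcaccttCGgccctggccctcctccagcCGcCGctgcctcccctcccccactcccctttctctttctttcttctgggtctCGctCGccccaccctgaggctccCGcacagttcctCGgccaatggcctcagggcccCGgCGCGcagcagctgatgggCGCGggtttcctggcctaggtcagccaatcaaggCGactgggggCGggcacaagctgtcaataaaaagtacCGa
Agmat, chr4:141746425-141746674, plus strand: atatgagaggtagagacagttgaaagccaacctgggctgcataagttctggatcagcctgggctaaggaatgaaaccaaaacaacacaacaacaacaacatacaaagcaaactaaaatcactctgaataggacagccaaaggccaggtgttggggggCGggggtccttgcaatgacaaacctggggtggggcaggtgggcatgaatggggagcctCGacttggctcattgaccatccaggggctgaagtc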

How the data were processed

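The authors deposited expected counts, estimated for every gene from aligned reads and not normalized. The study states oligo-dT cDNA, paired-end reads, and alignment with STAR to an Ensembl reference, and the submitters' processing notes name STAR, RSEM, and mm10, with versions not given in the sources used here. The extract protocol names a directional library kit. Spike-in sequences (92, together no more than 5 counts per mouse) were dropped. Names and positions came from GENCODE M21 (GRCm38), which contains 53620 of the 53715 genes, and sequences from GENCODE transcripts and RefSeq promoters.

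Counts were rounded and analysed in R 4.3.3 with edgeR 4.0.16 (TMM, filterByExpr, glmQLFTest), with an adjusted p below 0.05 as the threshold. Intervals at 95% are edgeR's estimate and standard error, or exact for pooled counts, and cover counting error only in the latter case. Log2 CPM used a prior count of 2. The 6 samples were treated as 6 mice, as the study's methods state; one of its legends speaks of technical triplicates, and p-values would then not describe animals. Alternatives were DESeq2 1.42.0, limma-voom (limma 3.58.1), RLE, other filters, the replicate block, and each mouse left out. The tests were tried on simulated data.

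The members and lists were chosen with earlier results of these data known. Named genes are the 8 members, *Slc39a8*, the direct neighbours of the members, and the 2 genes of lowest p of each list. Results that need an item withheld here are not reported. *Otc*, *Nags*, *Cps1*, *Gfap*, *Vti1b*, and *Teddm2* were named after their values were seen.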

Additional observations from a re-analysis of the deposited data

How the results depend on the processing

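In every alternative fit, 0 of those of the 8 enzymes and 108 related genes that were tested passed an adjusted p of 0.05. Over the whole table the number past it was 16, and it was 37 with DESeq2, 178 with no filter on low counts, and 41 with the replicate block, and between 9 (without *Slc39a8*-NSKO mouse 2) and 38 (without control mouse 1) with each mouse left out. The log2 fold changes of *Arg2* (0.36 to 0.62) and *Pc* (0.065 to 0.18) kept their sign in all fits that gave a value. For *Arg2*, whose groups did not overlap, leaving out a mouse could not turn the sign. Its constant sign is therefore no check of the difference. *Pc* had an unadjusted p below 0.05 with the replicate block (0.0485, adjusted p = 0.668) and without control mouse 3 (0.0167, adjusted p = 0.949). Those of *Arg1*, which turned positive without control mouse 1, and of *Sod2*, *Glul*, *Pck2*, and *Pepd*, which were near 0, changed sign in at least 1 fit. With limma-voom *Sod2* was at −0.00013. With each mouse left out, the log2 fold change lay between −0.020 and 0.024 for *Sod2*, −0.37 and 0.19 for *Arg1*, −0.018 and 0.037 for *Glul*, −0.071 and 0.051 for *Pck2*, and −0.015 and 0.049 for *Pepd*. The cause was not tested. *Agmat* could be fitted only with no filter (0.38) and with DESeq2 (0.38). *Glul* relative to glial markers ranged from −0.11 to −0.066 when single mice were dropped, and was −0.091 without *Slc1a2* and *Slc1a3* among the markers. The log2 fold changes of *Slc1a2* (0.060) and *Slc1a3* (0.079) were below the difference of the marker mean (0.10). Their removal was therefore bound to widen the difference and is no check of it. *Gfap*, with 0.40, was not left out. *Slc39a8* lay between −0.98 and −0.56.

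The replicate numbers were not taken as pairs in the main fit. Deviations from the group means correlated across genes by 0.142, 0.116, and 0.010 for numbers 1 to 3. Numbers 1 and 2 gave the highest correlations between the genotypes, but control mouse 3 correlated best with *Slc39a8*-NSKO mouse 1 (0.036). By chi-square over its degrees of freedom, control mouse 3 and *Slc39a8*-NSKO mouse 3 were the most alike of all mice (4.01). Whether the numbers mark pairs is not settled by these values, and the replicate block is given as an alternative. Depth limits the 3 ureohydrolases, which had 3 to 23 counts in a mouse.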

Other observations

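For each tested enzyme, the genes whose values followed it most closely over the 6 mice were found by the root mean square difference of log2 CPM, each gene centred on its own mean, among 16329 other genes. *Glul* was nearest to *Pex19* (0.0086) and *Pias2* (0.0098), and *Sod2* to *2610507B11Rik* (0.0066) and *Ndrg4* (0.013). *Pepd* was nearest to *Lrfn3* (0.0073) and *Tubb4a* (0.0093), *Pck2* to *Tomm40* (0.015) and *Nubp1* (0.018), and *Pc* to *Nfatc2ip* (0.022) and *Zfp292* (0.023). For *Arg1* these were *Sfmbt2* (0.061) and *Slc16a4* (0.062), and for *Arg2* *Nr6a1* (0.072) and *BC052040* (0.091). With 6 mice and so many genes, near matches are found for any gene.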
